A study of Homo sapiens with 8 samples.

Results

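PTGS2, which encodes cyclooxygenase-2, and 9 other genes of the prostaglandin pathway (PTGS1, PTGES, PTGES2, PTGES3, HPGD, PTGR1, PTGER2, PTGER4 and PLA2G2A) were followed in Caco-2 cells in which the splicing regulator ESRP1 had been raised or silenced. The members were all probes that map to these symbols through the platform annotation, 14 of 47322 probes on the array. PTGS2 was chosen by its log2 differences in these arrays, which ran opposite ways with ESRP1 overexpression and silencing, so they are described here without a test. Of the 14 probes, 10 were detected (detection p under 0.01) on 2 or more of the 8 arrays and entered the fit of 18231 probes. These 10 belonged to 7 genes.

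The Caco-2 line derives from a human colorectal carcinoma and has an enterocyte-like character, and ESRP1 is an RNA-binding protein that sets epithelial splicing patterns. RNA of adherent cells was hybridised to Illumina BeadChips in 4 groups with 2 arrays each. ESRP1-overexpressing cells carried the ESRP1 reading frame in the lentiviral vector pLX304 and were set against Empty vector cells, both selected with blasticidin according to the methods. ESRP1-silenced cells carried a hairpin against ESRP1 in the lentiviral vector pLKO.1 and were set against Scr (scrambled hairpin) cells, both selected with puromycin. Both ESRP1-silenced arrays hold the same hairpin (sh4), so what belongs to that hairpin and what belongs to loss of ESRP1 cannot be told apart. ESRP1-overexpressing and Empty cells lay on 1 chip, and ESRP1-silenced and Scr cells on the other. The comparisons are thus made on single chips, and vector, drug and chip cannot be told apart when values of the 2 chips are set side by side. The sources used here do not say whether the 2 arrays of a group came from separate cultures, so the p-values below rest on array-to-array spread that may be technical.

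Prostaglandin synthesis begins when phospholipases free arachidonic acid from membranes. The cyclooxygenases PTGS1 (constitutive) and PTGS2 (inducible by growth factors and inflammatory signals) turn it into prostaglandin H2, from which terminal synthases such as PTGES make prostaglandin E2. This lipid acts through G protein-coupled receptors, among them PTGER2 and PTGER4, and is inactivated by the dehydrogenase HPGD. In the colon, PTGS2 is commonly raised in adenomas and carcinomas, HPGD is commonly lost, and prostaglandin E2 promotes epithelial growth.

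The promoters of PTGS2 and PTGES are shown because these are the coupled, inducible steps of prostaglandin E2 synthesis. Each sequence is the 250 bases before the RefSeq transcription start in GRCh38.p14, on the minus strand, at chr1:186680424-186680673 for PTGS2 and at chr9:129753043-129753292 for PTGES. Capitals mark the motifs found on either strand.
PTGS2: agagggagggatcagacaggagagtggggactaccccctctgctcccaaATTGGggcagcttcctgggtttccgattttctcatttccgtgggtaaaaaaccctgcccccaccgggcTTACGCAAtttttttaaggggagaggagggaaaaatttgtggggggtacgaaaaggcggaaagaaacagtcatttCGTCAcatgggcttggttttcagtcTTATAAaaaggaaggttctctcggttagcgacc
PTGES: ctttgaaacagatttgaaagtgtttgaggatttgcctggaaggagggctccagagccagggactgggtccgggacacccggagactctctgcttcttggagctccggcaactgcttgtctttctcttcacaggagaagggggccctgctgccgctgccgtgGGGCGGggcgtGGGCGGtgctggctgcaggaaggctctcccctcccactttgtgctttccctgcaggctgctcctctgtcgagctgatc
The 6 motifs searched on both strands were the TATA box with the letters TATAA, the half-site of the cAMP response element with TGACG, the C/EBP motif with TTNNGCAA, the GC box with GGGCGG, the CCAAT box and the E-box with CACGTG. In PTGS2 the TATA box began 32 bases before the start, and the overlapping match on the other strand began at 33. The cAMP half-site began at 58 on the other strand, the C/EBP motif at 133, and the CCAAT box at 201 on the other strand. PTGES held 2 GC boxes, which began 89 and 78 bases before its start. The G and C content was 50.4% for PTGS2 and 61.2% for PTGES.
All 10 members had a RefSeq promoter, with 16 windows between them because some have several starts. TATAA was found in 2 of the 16 windows (18.9% of 35116 windows of all genes), TGACG in 4 (21.2% of all) and TTNNGCAA in 1 (9.05% of all). GGGCGG was found in 10 windows of 7 genes (42.6% of all), CCAAT in 5 windows of 4 genes (32% of all) and CACGTG in 1 (6.34% of all). Some windows of PLA2G2A overlap and hold the same CCAAT boxes. The C/EBP motif occurred in the PTGS2 window alone among the 16. These matches describe the letters of the windows and no binding was measured.

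ESRP1 itself was checked first. Its probe had log2 levels of 9.75 and 9.96 in ESRP1-overexpressing cells, against 8.26 and 7.91 in Empty cells (log2 difference 1.77, standard error 0.18, adjusted p = 0.0038 from limma, and 0.057 when only these 4 arrays were fitted). On both ESRP1-silenced arrays it was below detection and was at least 3.09-fold lower than in Scr cells (adjusted p = 0.047 from limma), a call that was lost without any 1 of the 8 arrays (adjusted p 0.072 to 0.32). At this threshold limma called 7.43% of all tested probes in ESRP1-overexpressing against Empty cells (741 higher and 613 lower) and 0.132% in ESRP1-silenced against Scr cells (6 higher and 18 lower). Median deposited signals were 167.1 to 184.7 on the chip of the ESRP1-overexpressing cells and 192.6 to 227.3 on the chip of the ESRP1-silenced cells. Of 10 epithelial intestinal markers with a probe, 8 were detected on both arrays of every group. PTPRC, CD3E and ITGAM were on no array, while 3 of 6 leukocyte markers with a probe were detected. One of them, LCP1, an actin-bundling protein that carcinoma lines also express and that is named here after its value was seen, fell by 2.13 on the log2 scale in ESRP1-overexpressing against Empty cells (adjusted p = 0.00068 from limma). The summed signal of the leukocyte list was 7684 to 7728 in ESRP1-overexpressing cells, against 12378 to 13610 in Empty cells. Without LCP1 the sum was 5381 to 5608 in ESRP1-overexpressing cells, against 4706 to 5253 in Empty cells, and 7783 to 8132 in ESRP1-silenced cells, against 5331 to 5909 in Scr cells. CD14, a co-receptor for lipopolysaccharide that is likewise named after its values were seen, had log2 differences of 0.85 and 1.05 on its 2 probes with silencing (adjusted p = 0.059 and 0.13). With overexpression CD14 had -0.15 and 0.20 on the same probes. CD68 had 0.465 and -0.354 with overexpression and -0.193 and -0.195 with silencing on its tested probes. Of 7 fibroblast markers, 1 was detected on both arrays of ESRP1-overexpressing and of Empty cells, and 3 on both arrays of ESRP1-silenced and of Scr cells. Of 5 endothelial markers only PECAM1 was detected, on 4 arrays. The part of these markers in the results was not tested.

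PTGS2 stood higher in ESRP1-overexpressing cells than in Empty cells and lower in ESRP1-silenced cells than in Scr cells, on both of its probes. The probe ILMN_2054297 stood at log2 levels of 11.72 and 11.90 in ESRP1-overexpressing cells, against 11.08 and 11.20 in Empty cells. It stood at 10.54 and 10.37 in ESRP1-silenced cells, against 11.59 and 11.61 in Scr cells. Neither pair of groups overlapped, as for 57.7% of all tested probes with overexpression and 45.4% with silencing. The ESRP1-silenced arrays were the lowest of all 8. The log2 difference was 0.67 (standard error 0.13, 1.59-fold higher) with overexpression and -1.15 (standard error 0.13, 2.21-fold lower) with silencing.
The other probe, ILMN_1677511, had log2 levels of 9.59 and 9.53 in ESRP1-overexpressing cells, against 8.82 and 9.04 in Empty cells. In ESRP1-silenced cells it had 8.43 and 8.60, against 9.86 and 9.96 in Scr cells. Again neither pair overlapped. The log2 difference was 0.63 (standard error 0.13, 1.55-fold higher) with overexpression and -1.40 (standard error 0.13, 2.63-fold lower) with silencing. Fewer PTGS2-expressing cells and less PTGS2 RNA per cell cannot be told apart in RNA of whole cultures.

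**Figure D1:**
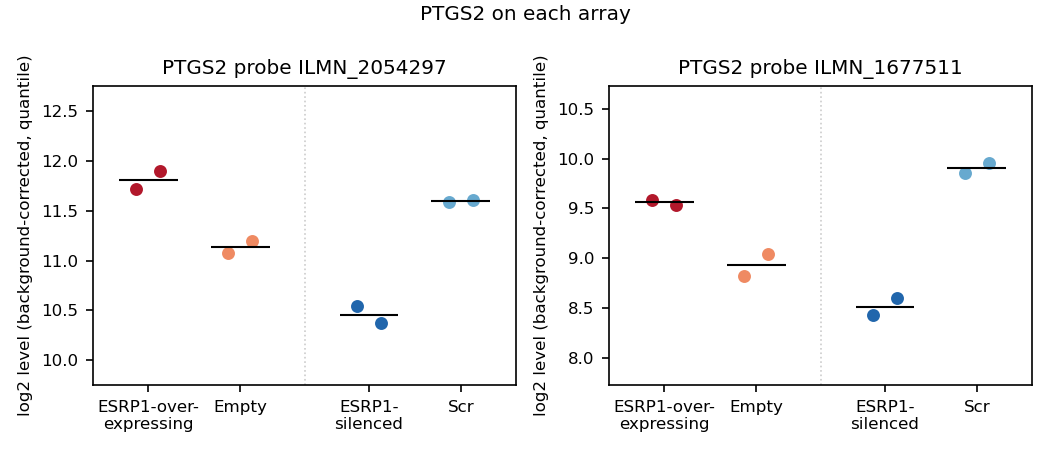
Log2 level (vertical axis) of the PTGS2 probes on each array, by group (horizontal axis), where each dot is an array and each bar a group mean. On both probes the ESRP1-overexpressing arrays lie above the Empty arrays and the ESRP1-silenced arrays below the Scr arrays, and the 2 control groups differ in level between the chips.

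The same pattern stands in the deposited signals before normalization. On probe ILMN_2054297 these were 2762 and 2976 in ESRP1-overexpressing cells, against 1399 and 1678 in Empty cells, and 2285 and 1916 in ESRP1-silenced cells, against 4429 and 3598 in Scr cells. PTGS2 was detected on all 8 arrays by both probes. Over the 8 arrays the probes correlated at r = 0.972 after subtraction of the mean of each chip and at r = 0.893 without it, which is a description over arrays that share groups and chips.
On the normalized scale ILMN_2054297 ran from ESRP1-silenced (mean 10.46 ± 0.13) through Empty (11.14 ± 0.08) and Scr (11.60 ± 0.02) to ESRP1-overexpressing cells (11.81 ± 0.12, SD, n = 2 arrays each). No neighbours in this order overlapped, with gaps of 0.68, 0.46 and 0.21. ILMN_1677511 gave the same 2 lowest groups but placed Scr (9.91 ± 0.07) above ESRP1-overexpressing cells (9.56 ± 0.04), so the order of these groups, which lie on different chips, depended on the probe. The order of ESRP1-silenced and Empty cells depended on normalization, since in deposited signals ESRP1-silenced cells were the brighter on both probes. The PTGS2 differences within a chip kept their sign under the alternatives that changed the values. These were no background correction, the authors' values and normalization by chip.

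The 2 control groups, which differ in vector, drug and chip, were apart for part of this gene set. On the normalized scale Empty minus Scr was -0.46 and -0.98 for the PTGS2 probes, -0.79 for HPGD and -0.43 for PTGES3. It was -0.042 and 0.09 for the PTGR1 probes. PTGES was not detected in Empty cells and was at least 2.45-fold lower there than in Scr cells, and PLA2G2A was not detected in Scr cells and was at least 1.65-fold higher in Empty cells. The PTGES2 probes moved opposite ways between the chips, with Empty minus Scr at 0.80 on ILMN_2345015 and at -0.81 on ILMN_2345016. Over all tested probes the median size of this difference was 0.35, and 34.9% of probes differed by at least 0.5.

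The other cyclooxygenase, PTGS1, was not detected. Its 2 probes passed the detection threshold on 0 of 8 arrays, with log2 levels from 5.48 to 5.84 on ILMN_1665100 and from 4.80 to 5.39 on ILMN_2339835. No fold is given for it in either comparison.

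Among the enzymes that act after cyclooxygenase, PTGES is the inducible synthase that makes prostaglandin E2. Its log2 levels were 6.59 and 7.09 in ESRP1-overexpressing cells, against 6.50 and 5.51 in Empty cells, and 7.53 and 7.47 in ESRP1-silenced cells, against 8.37 and 8.21 in Scr cells. The ESRP1-silenced arrays lay below the Scr arrays with no overlap, a separation found for 45.4% of all tested probes. The probe was detected on 1 of 2 ESRP1-overexpressing arrays and on neither Empty array, so neither a direction nor a fold is given there. The fit gave adjusted p = 0.16 from limma, with 0.038 without Empty replicate 1 and 0.46 without Empty replicate 2, all against values under detection. With silencing, where all 4 arrays detected it, the log2 difference was -0.79 (standard error 0.32, adjusted p = 0.35). Overexpression minus silencing gave adjusted p = 0.11 from limma, in a contrast that called 3.20% of tested probes.
PTGES2, a membrane-associated synthase, and PTGES3, a cochaperone of HSP90 also described as a cytosolic synthase, were detected on all 8 arrays. PTGES2 ILMN_2345015 had a log2 difference of -0.22 with overexpression (95% interval -0.51 to 0.075) and of -0.10 with silencing (-0.40 to 0.19). PTGES2 ILMN_2345016 had 0.14 (-0.17 to 0.46) and 0.087 (-0.23 to 0.40) in the same comparisons. PTGES3 had 0.30 with overexpression (-0.048 to 0.66) and -0.006 with silencing (-0.36 to 0.35). None of these passed the test, with adjusted p from 0.25 to 0.99 from limma.

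HPGD, which oxidises and so inactivates prostaglandin E2, had log2 levels of 10.25 and 10.25 in ESRP1-silenced cells, against 10.77 and 10.73 in Scr cells. The groups did not overlap, as for 45.4% of all tested probes, and the spread within each was under the difference of -0.50 (standard error 0.11). The unadjusted p was 0.0036 and the adjusted p 0.17 from limma over all probes. A trended and robust variance prior in limma gave adjusted p = 0.034, in a fit that called 549 probes with silencing instead of 24. ESRP1-overexpressing cells had 10.10 and 10.06, against 10.04 and 9.86 in Empty cells (log2 difference 0.13, standard error 0.11, adjusted p = 0.52). The difference between the comparisons was 0.63 (standard error 0.16, adjusted p = 0.092 from limma).
PTGR1, a reductase that acts on prostaglandin and leukotriene metabolites, was detected by 2 probes on all arrays. Its log2 difference with overexpression was 0.18 on ILMN_2225537 (95% interval -0.16 to 0.52) and 0.21 on ILMN_1704531 (-0.20 to 0.63). With silencing it was 0.067 (-0.27 to 0.41) and 0.28 (-0.14 to 0.70) on these probes, and no adjusted p was below 0.49.

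Both receptors lay at or near background. PTGER2 was detected on 0 arrays and PTGER4 on 1, an Empty array, and neither entered the test. PLA2G2A, a secreted phospholipase that can release arachidonic acid, was detected only on the chip of the ESRP1-overexpressing cells. It had log2 levels of 7.09 and 6.21 in ESRP1-overexpressing cells, of which the higher was above detection, against 7.53 and 7.19 in Empty cells (log2 difference -0.71, standard error 0.39, adjusted p = 0.31 from limma). On the other chip, with ESRP1-silenced and Scr cells, it was not detected on any array, so no fold is given.

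**Figure D2:**
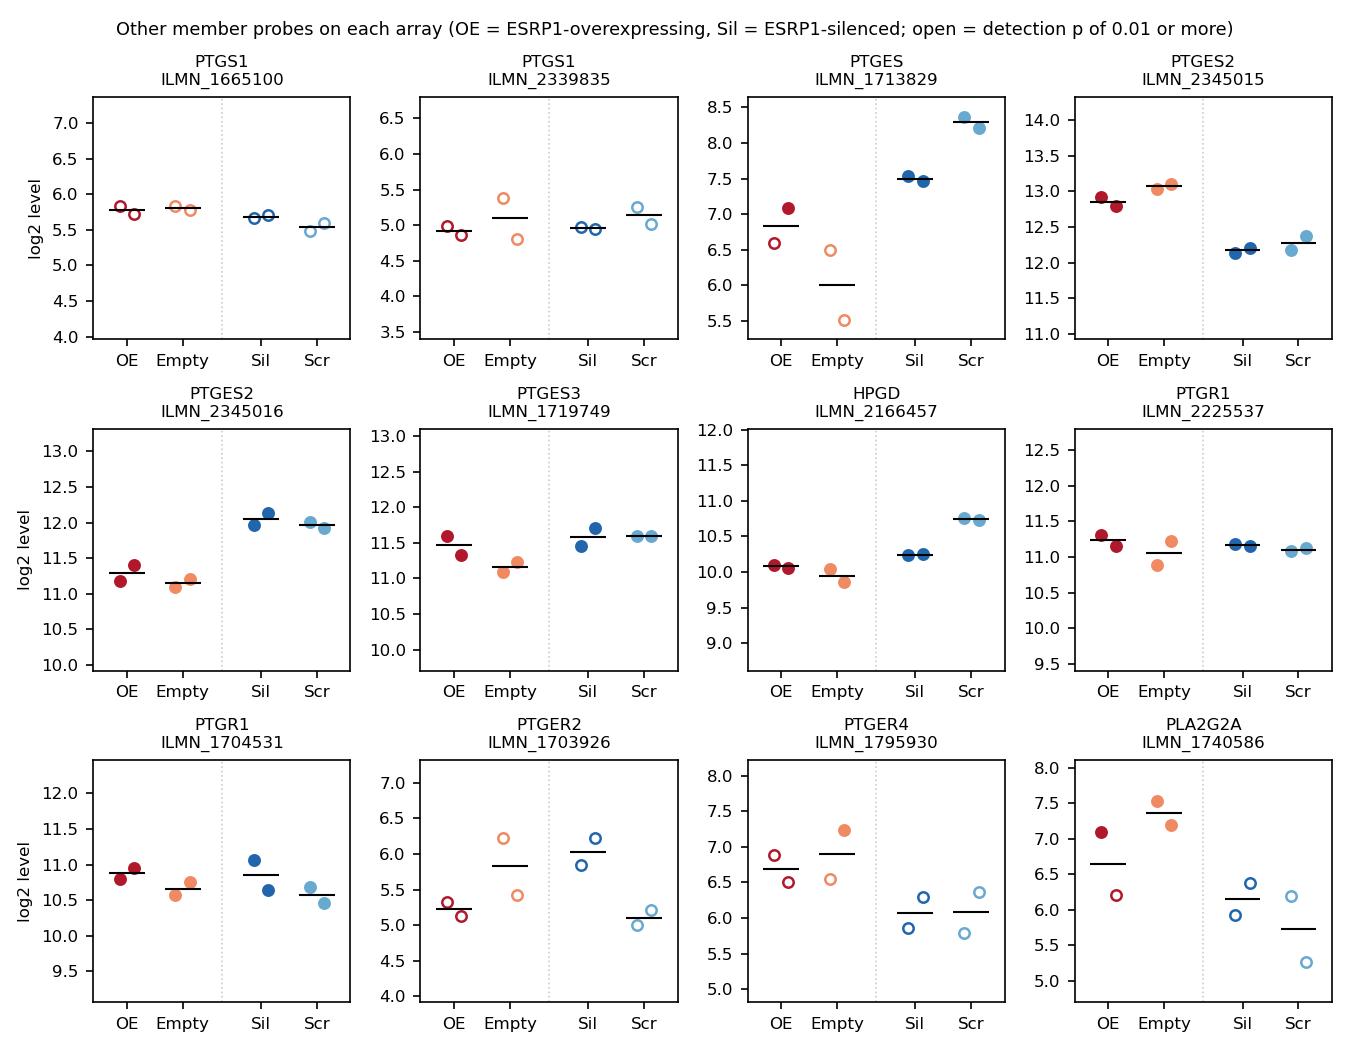
Log2 level (vertical axis) of the members other than PTGS2 on each array, by group (horizontal axis), 1 panel per probe, where each dot is an array, open where the probe was not detected, and each bar a group mean (OE stands for ESRP1-overexpressing and Sil for ESRP1-silenced). PTGES is detected on all arrays of ESRP1-silenced and Scr cells and on 1 of the other 4, HPGD is lower on both ESRP1-silenced arrays than on both Scr arrays, and the PTGES2 probes shift in opposite directions between the chips.

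Of the 8 tested probes of members other than PTGS2, limma called 0 in either comparison and 0 in the difference between them, and the methods' t-test called 0 in both comparisons. At an unadjusted p under 0.05 there was 1 in ESRP1-overexpressing against Empty cells (PTGES), where 25.9% of all tested probes had such a p, and 2 in ESRP1-silenced against Scr cells (PTGES and HPGD), where 13.5% of all did. The arrays of ESRP1-overexpressing and Empty cells did not overlap for 6 of these 8 probes, against 57.7% of all tested probes. Among the 6 were PTGES, with values mostly under detection, and PLA2G2A, detected on 1 of 2 ESRP1-overexpressing arrays. Those of ESRP1-silenced and Scr cells did not overlap for 3 of the 8, against 45.4% of all tested probes. The median log2 difference was 0.16 with overexpression and 0.03 with silencing, beside a median over all tested probes of 0 in each. Both medians rest in part on values under detection, of PTGES in Empty cells and of PLA2G2A in ESRP1-silenced and Scr cells. With 2 arrays against 2, an exact permutation test of a single probe cannot give a p below 0.333.

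**Figure D3:**
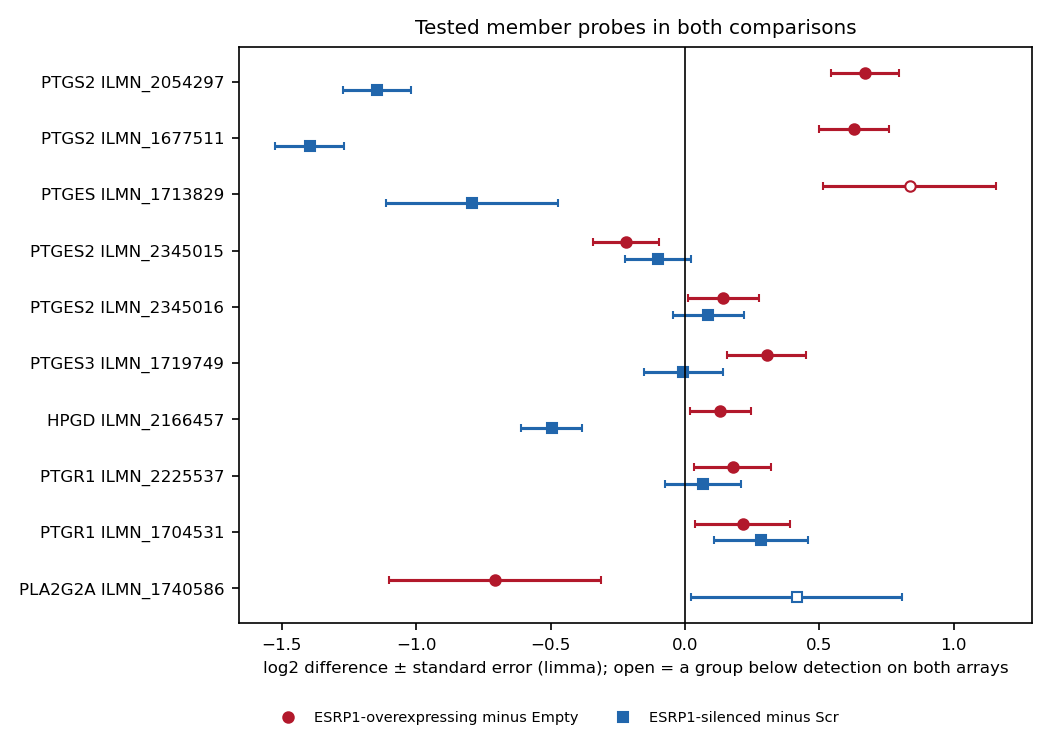
Log2 difference with its standard error from limma (horizontal axis) for the 10 tested member probes (vertical axis), with circles for ESRP1-overexpressing minus Empty and squares for ESRP1-silenced minus Scr, and open symbols where a group was below detection on both arrays. Both PTGS2 probes lie to the right of 0 with overexpression and to the left with silencing, while the probes of PTGES2, PTGES3 and PTGR1 lie nearer to 0 in both comparisons.

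Of 22 listed genes for release and handling of arachidonic acid, 9 were tested, of which 2 rose and 2 fell in ESRP1-overexpressing cells. Over all genes tested, 8.07% passed the test in that comparison. MGLL, the lipase that splits 2-arachidonoylglycerol, was not called on ILMN_1657708, which was detected on 1 ESRP1-overexpressing array and no Empty array (at least 1.16-fold higher, adjusted p = 0.09 from limma). Its brighter probe, ILMN_1738589, had 7.21 and 7.51 on the log2 scale in ESRP1-overexpressing cells, against 5.88 and 6.13 in Empty cells, where it was not detected. It was at least 1.29-fold higher (adjusted p = 0.012 from limma), and this call was lost without ESRP1-overexpressing replicate 2 (adjusted p = 0.062). ACSL4, which activates arachidonic acid to its CoA ester, rose by 0.70 (standard error 0.14, adjusted p = 0.03), and lost its call without any 1 array other than Empty replicate 1 (adjusted p 0.053 to 0.14).
PLA2G10, a secreted phospholipase, had 7.67 and 7.53 in ESRP1-overexpressing cells, against 8.74 and 8.81 in Empty cells. Its log2 difference was -1.18 (standard error 0.14, adjusted p = 0.0067 from limma) and kept its call on omission of each of the 8 arrays, but not when only the 4 arrays of the comparison were fitted (adjusted p = 0.054). PLAAT3, a phospholipase and acyltransferase, fell by 0.72 (standard error 0.12, adjusted p = 0.018) and lost its call without any 1 of the 4 arrays of this comparison (adjusted p 0.052 to 0.11). With silencing 0 of these 9 genes passed the test.

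Terminal synthases other than the members were represented by 3 tested genes of 9 listed. CBR1, a carbonyl reductase that can convert prostaglandin E2, rose by 0.79 in ESRP1-overexpressing cells (standard error 0.18, adjusted p = 0.049 from limma). This call was lost without any 1 of the 8 arrays (adjusted p 0.058 to 0.18). Among 8 listed prostanoid receptors and receptor partners only PTGFRN, a negative regulator of the prostaglandin F2-alpha receptor, was tested. Its log2 difference was 0.58 with overexpression (adjusted p = 0.096) and 0.27 with silencing (adjusted p = 0.54). Of 4 tested genes of prostanoid transport and breakdown 0 passed the test from limma, including the exporter ABCC4, whose probe ILMN_1788457 had log2 differences of 0.35 with overexpression (adjusted p = 0.12) and -0.23 with silencing (adjusted p = 0.43). Its other probe, ILMN_2194009, had -0.038 (adjusted p = 0.9) and -0.20 (adjusted p = 0.6). In the lipoxygenase and leukotriene branch 0 of 3 tested genes passed, and LTA4H, the leukotriene A4 hydrolase, had log2 differences of 0.008 and 0.010.

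Nearly all listed regulators of PTGS2 were tested. All 13 listed transcription regulators were tested, and 1, the nuclear receptor PPARG, rose in ESRP1-overexpressing cells, where 8.07% of all genes passed. Its brighter probe had 11.51 and 11.64 there, against 10.95 and 10.73 in Empty cells (log2 difference 0.73, standard error 0.14, adjusted p = 0.029 from limma), and the other probe gave 0.81 (adjusted p = 0.013). The call of the brighter probe was lost without any 1 array other than those of ESRP1-silenced cells (adjusted p 0.053 to 0.13). With silencing 0 of the 13 passed the test.
Among all genes tested, 8.07% were called with overexpression and 0.157% with silencing. Of 13 tested genes that act on stability or translation of PTGS2 mRNA, MAP2K3, a kinase that activates p38, was the 1 call in each comparison. It had 11.17 and 11.12 in ESRP1-overexpressing cells, against 10.36 and 10.65 in Empty cells, and 9.19 and 9.44 in ESRP1-silenced cells, against 10.63 and 10.61 in Scr cells. The groups did not overlap in either comparison, as for 57.7% of all tested probes with overexpression and 45.4% with silencing. The directions were those of PTGS2, in a list written with earlier results of these data known. Both calls had adjusted p = 0.047 from limma and were lost without any 1 of the 8 arrays, with adjusted p from 0.056 to 0.18 for overexpression and from 0.072 to 0.32 for silencing. A dimmer MAP2K3 probe, ILMN_1801175, had log2 differences of 0.88 (adjusted p = 0.043) and -0.99 (adjusted p = 0.13).
Of 10 listed genes that respond to prostaglandin E2 or cAMP, 3 were tested. PDE4D, a phosphodiesterase that degrades cAMP, fell by 0.96 in ESRP1-overexpressing cells (standard error 0.19, adjusted p = 0.03 from limma), with 9.28 and 9.20 on the log2 scale there, against 10.16 and 10.24 in Empty cells. Here too the call held only on leaving out an ESRP1-silenced array, with adjusted p from 0.061 to 0.12 otherwise. With silencing its difference was -0.17 (adjusted p = 0.74).
With 1 probe per gene, 8.07% of 10805 genes passed the test with overexpression and 0.157% with silencing, and median log2 differences over all genes were 0 and -0.016. For the lists with 3 or more tested genes, the median log2 difference with overexpression was -0.14 for arachidonate release, 0.12 for other synthases, 0.45 for transport and breakdown, -0.034 for the lipoxygenase branch, 0.22 for transcription regulators, 0.15 for regulators of PTGS2 mRNA and 0.20 for genes that respond to prostaglandin E2. In transport and breakdown, PTGR3 and SLCO2A1 were below detection on both Empty arrays, so the median of that list rests in part on values under detection. With silencing the medians were -0.057 for arachidonate release, 0.066 for other synthases, -0.082 for transport and breakdown, 0.42 for the lipoxygenase branch, -0.11 for transcription regulators, -0.08 for regulators of PTGS2 mRNA and -0.17 for genes that respond to prostaglandin E2. All 8 pathway genes called with overexpression, and the 1 called with silencing, lost the call when only the 4 arrays of their comparison were fitted (adjusted p 0.054 to 0.14 and 0.1).

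**Figure D4:**
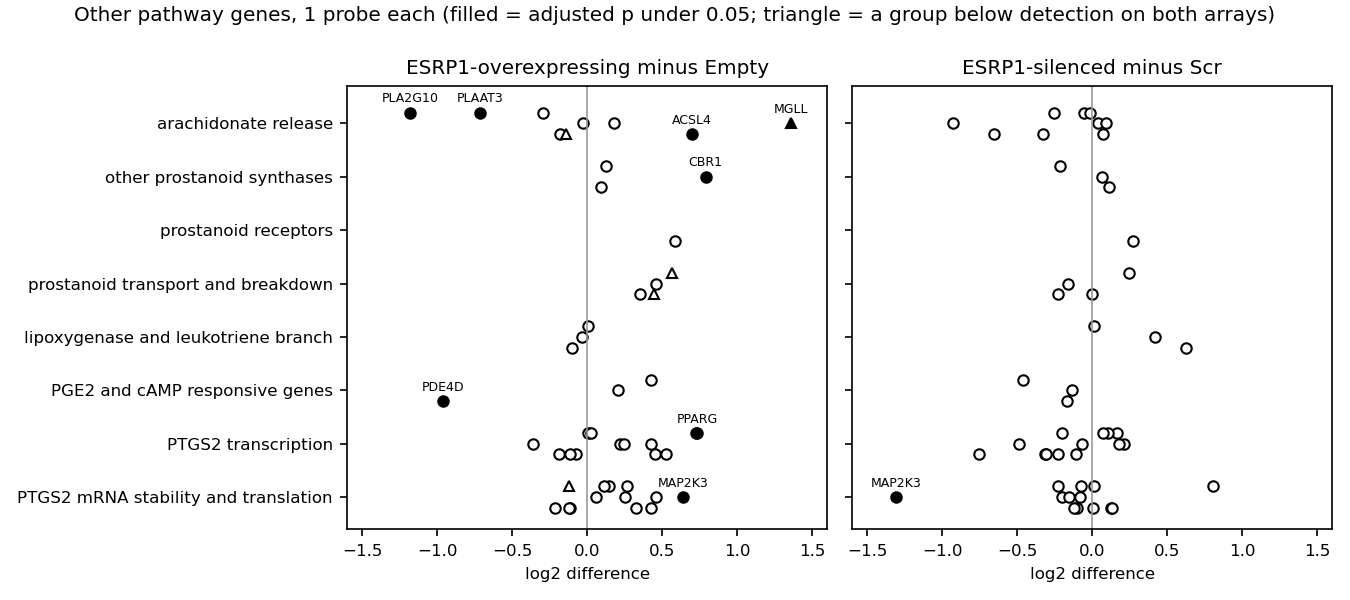
Log2 difference (horizontal axis) of the other pathway genes, 1 probe per gene, by list (vertical axis), with ESRP1-overexpressing minus Empty on the left and ESRP1-silenced minus Scr on the right. Filled symbols passed an adjusted p under 0.05 and triangles mark genes with a group below detection on both arrays. The calls are MGLL, ACSL4, PLA2G10, PLAAT3, CBR1, PDE4D, PPARG and MAP2K3 with overexpression and MAP2K3 with silencing.

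The genes whose values over the 8 arrays were most like those of PTGS2 were DUSP1 (r = 0.984), PI3 (0.982), SUSD2 (0.978), COCH (0.977) and TAF5L (0.977). Likeness was Pearson's r with the mean of each chip subtracted, over 3326 genes whose values varied at least 50% as much as those of PTGS2, and r serves here as a description. DUSP1, a phosphatase of MAP kinases, had 10.89 and 10.95 on the log2 scale in ESRP1-overexpressing cells, against 10.60 and 10.65 in Empty cells, and 10.22 in both ESRP1-silenced arrays, against 10.82 and 10.93 in Scr cells. PI3, an elastase inhibitor of epithelia, had log2 differences of 0.57 with overexpression and -0.82 with silencing, and COCH had 0.30 and -0.67. SUSD2, a membrane protein, had 9.79 and 9.79 in ESRP1-overexpressing cells, against 9.35 and 9.25 in Empty cells, and 9.28 and 9.33 in ESRP1-silenced cells, against 10.25 and 10.26 in Scr cells. TAF5L, a subunit of a histone acetyltransferase complex, was not detected on the chip of the ESRP1-silenced cells, so its values there lie below detection. The groups of these genes do not overlap, which the choice by likeness to PTGS2 largely fixes.

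**Figure D5:**
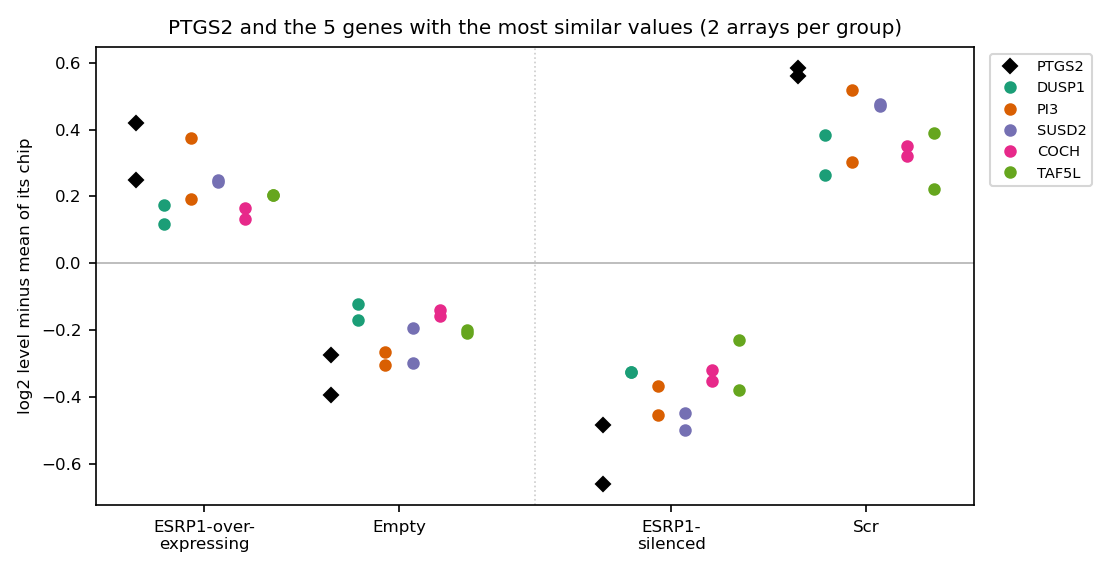
Log2 level minus the mean of its chip (vertical axis) for PTGS2 (black diamonds) and the 5 most similar genes (coloured dots), by group (horizontal axis), with 2 arrays per group. All 6 lie above 0 in ESRP1-overexpressing and Scr cells and below 0 in Empty and ESRP1-silenced cells, and TAF5L was below detection in ESRP1-silenced and Scr cells.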

How the data were processed

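RNA of Caco-2 cells was measured on 8 Illumina arrays, with 2 arrays in each of 4 groups and 4 arrays on each of 2 chips. Raw probe intensity, as deposited by the authors, is the mean bead signal before any normalization (lowest value 73.8). Each intensity has a detection p-value, also deposited, from the negative control probes of its array, and 88 of these, written with a comma, were read as 1. Intensities already normalized by the authors, with a method not given in the sources used here, served as an alternative. Per-array columns left unused numbered 0.

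Raw signals were processed with neqc (limma 3.58.1, R 4.3.3), which estimates background through the detection p, with an offset of 16, quantile normalization over the 8 arrays and log2 transformation. All levels above are on this scale unless signals are named. Symbols are the current RefSeq symbols of the gene identifiers in the platform annotation, or the platform symbol where RefSeq had none (30113 of 47322 probes with 1 symbol). The 18231 probes detected on 2 or more arrays at a detection p under 0.01 were fitted jointly in limma, with 4 groups, 4 residual and 2.8 prior degrees of freedom. Two-sided p-values were corrected over all tested probes (Benjamini-Hochberg), and a call is an adjusted p under 0.05. Where a group had a probe below detection on both arrays, its values there were raised, array by array, to the dimmest detected probe if they lay under it, and the brighter group's mean over these gave an at-least fold. No fold is given where this fell under 1 or where both groups were below detection. The limma fit was tested on simulated data.

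The members and all gene lists were chosen with earlier results of these data known. Named besides the members were, per list, up to 4 called genes with the largest difference or else the gene with the highest mean, ESRP1, and the 5 genes most like PTGS2. In lists each gene is represented by its probe of highest mean. Promoters came from RefSeq (GRCh38.p14). Alternatives changed the background step (quantile normalization alone), the values (those of the authors), the normalization (by chip), the detection filter (none, or all 8 arrays), the arrays fitted (4, or leaving out 1), the variance prior (trended and robust), added the replicate number as a block, or used the methods' t-test (p under 0.01 and a fold over 1.5, or Benjamini-Hochberg). For genes outside the members these alternatives were chosen after seeing the data. The number of arrays limits the precision.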

Additional observations from a re-analysis of the deposited data

Results flagged for a closer look

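PTGS2 moved in opposite directions in the 2 comparisons, with every ESRP1-overexpressing array above both Empty arrays and every ESRP1-silenced array below both Scr arrays. Groups without overlap were found for 57.7% of all tested probes with overexpression and 45.4% with silencing. The log2 difference with overexpression exceeded that with silencing by 1.82 on probe ILMN_2054297 and by 2.03 on probe ILMN_1677511. This gap is the property for which the gene was chosen, and the difference was not tested.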

How the results depend on the processing

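PTGS2 was chosen by the signs of its differences. Changing the filter, the variance prior, the block or the arrays of the other chip cannot move these differences. The other alternatives left the signs unchanged. The differences lay at 0.58 to 0.76 with overexpression and -1.23 to -1.06 with silencing on ILMN_2054297. On ILMN_1677511 they shrank to 0.51 and -1.11 without background correction, and to 0.52 and -1.12 with the authors' values. Member probes other than PTGS2 gave 0 calls in the fit as reported. They gave 1 with silencing under a trended and robust variance prior (HPGD), and 0 to 1 with overexpression on leaving out each array in turn (PTGES without Empty replicate 1, against a value under detection). The cause was not tested.

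Counts over all probes varied more. With overexpression limma called 1354 probes, against 2173 without background correction, 2140 with the authors' values, 508 without a detection filter, 142 from only the 4 arrays, 2557 with the trended and robust prior, 452 by the methods' t-test at its p and fold thresholds and 0 by it after Benjamini-Hochberg, and 376 to 998 on leaving out each array. With silencing the 24 calls (25% higher) became 233 without background correction (45.1% higher), 219 with the authors' values (45.7% higher), 46 with each chip normalized separately, 0 without a detection filter, 237 with detection on all 8 arrays, 0 from only the 4 arrays, 549 with the trended and robust prior, 125 and 0 by the t-test in its 2 forms, and 0 to 0 on leaving out each array. Overexpression minus silencing gave 584 calls, against 1208, 1182, 166, 1039 and 1640 (no background correction, the authors' values, no filter, all 8 arrays, trended prior), and 91 to 349 on leaving out each array.

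Same-numbered arrays did not deviate together (r = 0.02 with overexpression and 0.058 with silencing). The replicate number as a block gave 1061, 0 and 351 calls in overexpression, silencing and their difference, and 0 member calls. CBR1 lost its call under it, as did MAP2K3 in both comparisons and ESRP1 with silencing (adjusted p = 0.12 from limma for ESRP1). An array left alone in its group was assumed to vary like the others. A probe below detection has no measurable fold here, which covers PTGS1, PTGER2 and PTGER4.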
